A study of Mus musculus with 6 samples.

Results

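The genes described here make, break down, carry or sense retinoic acid in the fetal mouse testis. They are 9 genes: the retinaldehyde dehydrogenases Aldh1a1, Aldh1a2 and Aldh1a3, the retinol dehydrogenase Rdh10, the retinaldehyde reductase Dhrs3, the degrading enzyme Cyp26b1, the binding protein Crabp1, and the receptors Rara and Rxrb. Every probe set annotated with 1 symbol equal to a member was taken, which gave 12 of the 45101 probe sets on the array, for 9 of 18194 annotated genes. Of these 12, 11 were bright enough to be tested, and each of the 9 genes had at least 1 tested probe set.

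Expression was measured on oligonucleotide arrays in E13.5 testes of mouse embryos outcrossed to 129S6/SvEvTac, in 3 Dmrt1 null and 3 control samples. The null samples are Dmrt1 (-/-) by title and description, while their genotype field reads Dmrt(flox/flox) and no label names a Cre driver. The controls are titled wt, while their descriptions and genotype fields give a Dmrt1 heterozygote. All samples are labelled biological replicates, and no label says whether animals were pooled. Dmrt1 itself had intensities of 48.4, 26.9 and 23.8 in null replicates 1, 2 and 3, against 696, 1030 and 796 in control replicates 1, 2 and 3. The array medians were 14.6 to 14.8, and the number of arrays limits the precision. The ratio of the 3′ to the 5′ control probe set of beta-actin was 2.75 in null replicate 3, and 1.91 to 2.15 on the other arrays. Of the testis markers, Sox9 had intensities of 298 to 554 in null and 419 to 877 in control testes on its brightest probe set. The ovarian factor Foxl2 lay below the filter on both of its probe sets. Of 12 Sertoli markers 11 were tested, 8 with a higher and 3 with a lower mean in null testes. Of 8 ovarian markers 5 were above the filter and tested, 3 higher and 2 lower. No marker of either list was called.

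Retinoic acid is made from retinol by successive oxidations. RDH10 makes retinaldehyde, which DHRS3 can turn back into retinol, and the ALDH1A enzymes oxidise retinaldehyde to retinoic acid. The acid acts through heterodimers of RAR and RXR receptors bound to DNA, and CYP26 enzymes oxidise it to inactive forms. In the fetal mouse gonad it acts on germ cells, where Stra8 is a target needed for meiosis, and CYP26B1 in the fetal testis shields germ cells from it. DMRT1, a DM domain transcription factor of Sertoli and germ cells, is known in the postnatal mouse testis to limit the response of spermatogonia to retinoic acid and to repress Stra8.

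Promoter windows with letters of the kind these receptors are known to bind are shown first, as a description of the sequence. The windows of 300 bases, running from 250 before to 50 after a transcript's start, came from RefSeq (GRCm38.p6), and 7 of the 9 members had 14 windows between them, all but Aldh1a3 and Rdh10. Receptor hexamers were searched on both strands, in the forms AGGTCA or AGTTCA or GGGTCA or GGTTCA, as were their direct repeats with 1, 2 or 5 bases between. The letters ACAATGT, the core of DM domain sites, were searched on both strands too. A hexamer lay in 3 of the 14 windows, 2 of Rara and 1 of Aldh1a1, against 43.7% of all 32851 windows. Windows of the same gene can overlap, as some of Rara and Dhrs3 do, so the 14 windows are not all separate sequence. The direct repeats and ACAATGT had no match in the 14 windows, where they have one in 0.222%, 0.268% and 0.0974% (spacings of 1, 2 and 5) and 2.96% of all windows. A hexamer inside a direct repeat is counted as a hexamer too.

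Of the other pathway genes, Rarb and Cyp26a1 each held a direct repeat with 5 bases between, starting 53 and 32 bases before the transcript start, and Stra8 held 2 hexamers and ACAATGT. Windows of genes of retinol supply had such letters too. Bco1 held a direct repeat with 1 base between, Adh4 held 2 hexamers and ACAATGT, and Adh5 held ACAATGT. Shown are the repeats of Rarb and Cyp26a1 and the letters of Stra8, since these genes are known targets of retinoic acid, and then 2 of the 3 member windows with a hexamer. The remaining one, another Rara window, had AGGTCA starting at position 33 after the start. Each sequence runs 5′ to 3′ on the strand of its gene, with matches to a hexamer or to ACAATGT in capitals on either strand.
Rarb, chr14:16575496-16575551, minus strand: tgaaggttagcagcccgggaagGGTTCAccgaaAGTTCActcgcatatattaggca
Cyp26a1, chr19:37697748-37697803, plus strand: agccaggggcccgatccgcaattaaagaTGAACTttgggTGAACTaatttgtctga
Stra8, chr6:34920743-34920928, plus strand: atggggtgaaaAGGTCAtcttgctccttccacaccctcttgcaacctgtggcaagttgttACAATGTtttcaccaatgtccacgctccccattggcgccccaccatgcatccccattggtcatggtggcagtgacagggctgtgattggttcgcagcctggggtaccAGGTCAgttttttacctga
Rara, chr11:98939461-98939641, plus strand: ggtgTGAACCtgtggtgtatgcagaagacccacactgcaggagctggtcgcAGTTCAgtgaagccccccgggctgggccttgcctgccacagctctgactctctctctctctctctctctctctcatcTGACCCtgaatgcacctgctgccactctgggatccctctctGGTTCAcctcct
Aldh1a1, chr19:20601888-20601948, plus strand: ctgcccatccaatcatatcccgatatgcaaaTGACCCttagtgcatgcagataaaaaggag
A match describes the letters in these windows, and binding was not measured.

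No retinoic acid gene passed the test between null and control testes. By limma with Benjamini-Hochberg adjustment over 22082 probe sets, 0 of the 11 tested member probe sets were called at an adjusted p of 0.05, against 0.0272% of all probe sets tested (6 of 22082). At an unadjusted p under 0.05 the count was also 0 of 11, against 6.04% of all. Null testes had the higher mean at 6 member probe sets and the lower at 5. The median log2 difference of null minus control was 0.04, against 0.01 over all probe sets tested. The median absolute difference was 0.17, against 0.12. Members' adjusted p ran from 0.774 to 0.992. Null and control values did not overlap at 1 of 11 member probe sets, Rara, against 12.8% of all probe sets tested. The 95% confidence intervals of all 11 covered 0. These p-values rest on the spread between the labelled replicates, which limma draws towards that of other probe sets of like intensity.

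**Figure D1:**
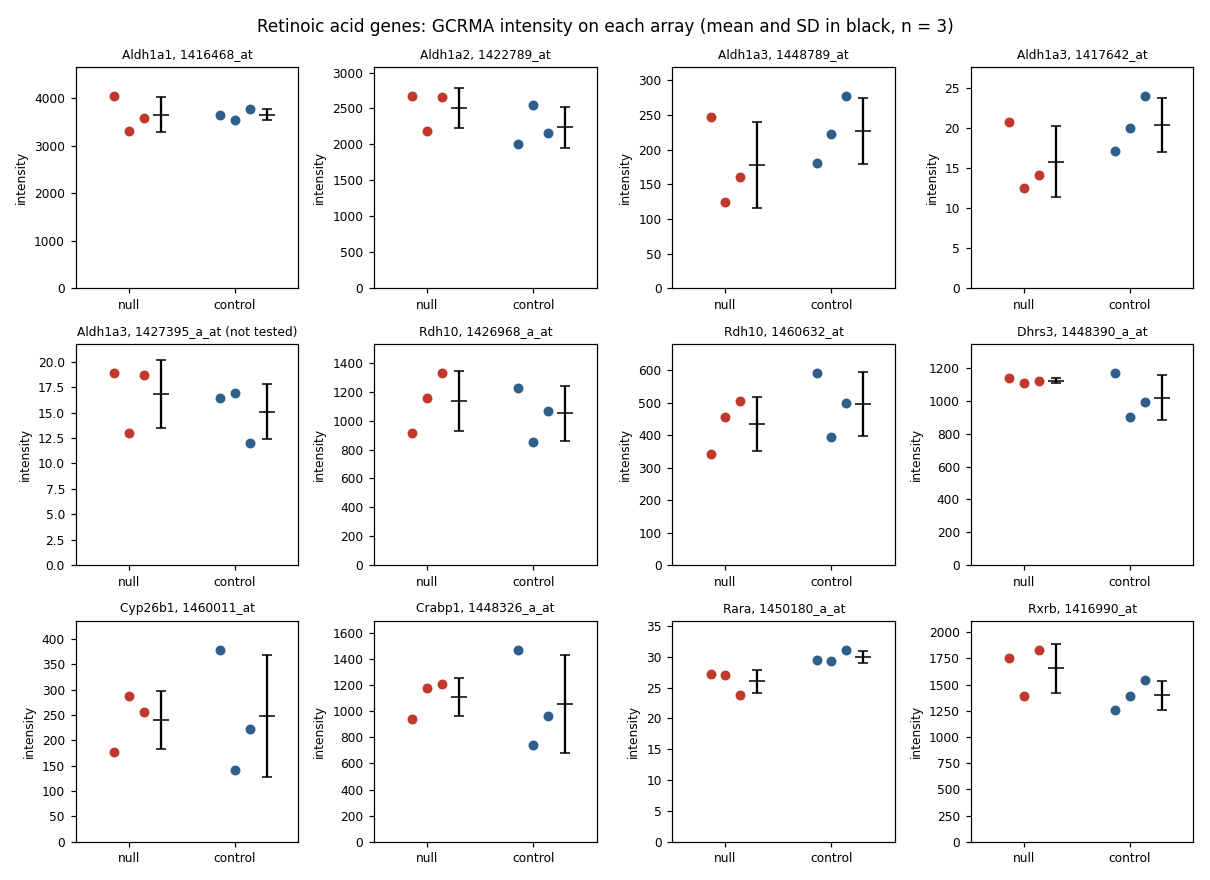
Intensity on the linear scale (vertical axis, from 0) of the 12 probe sets of the retinoic acid genes on each of the 3 null (left in each panel, red) and 3 control arrays (right, blue), with the mean and SD in black. The groups overlap in every panel but that of Rara, and the control points of Cyp26b1 spread from 142 to 378.

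Among the enzymes that make retinoic acid, Aldh1a1 varied least between arrays of a group. It had intensities of 4040, 3310 and 3590 in null replicates 1, 2 and 3, against 3650, 3530 and 3770 in control replicates 1, 2 and 3. The highest and the lowest arrays were both null, 1.22-fold apart, and the control values lay between them. Its log2 difference was -0.01 (standard error 0.08, 95% confidence interval -0.19 to 0.17, n = 3 per group, limma adjusted p = 0.992), and the interval of its fold ran from 0.879 to 1.13.

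Aldh1a2, the main retinoic acid synthase of the early embryo, had 2670, 2190 and 2660 in null testes and 2000, 2550 and 2160 in control testes. The groups overlapped, with control replicate 2 above null replicate 2. The log2 difference was 0.17 (standard error 0.11, interval -0.10 to 0.43, limma adjusted p = 0.792, n = 3 per group), a fold of 1.12. Fits on 5 arrays placed it between 0.09, with control replicate 1 left out, and 0.26, with control replicate 2 left out.

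Aldh1a3, the remaining retinaldehyde dehydrogenase, had the largest differences of the members, both towards lower values in the null. Its brightest probe set had 247, 125 and 161 in null testes, against 181, 223 and 277 in control testes. Null replicate 1 stood among the controls, and null replicates 2 and 3 below all of them. The log2 difference was -0.39 (standard error 0.27, limma adjusted p = 0.792, n = 3 per group), a fold of 0.763 with an interval of 0.498 to 1.17. A dimmer tested probe set gave 20.8, 12.5 and 14.2 in null testes and 17.2, 20.0 and 24.0 in control testes, in the same order of arrays. Its log2 difference was -0.39 as well (standard error 0.23, limma adjusted p = 0.778, n = 3 per group). With 16 added to every intensity this dimmer set, whose values lie near the array medians, gave -0.20. The Aldh1a3 probe set below the filter had 18.9, 13.0 and 18.7 in null and 16.4, 16.9 and 12.0 in control testes, and a log2 difference of 0.16, opposite in sign. Its mean log2 value was 3.98, just under the minimum of 4, and that of the dimmer tested set was 4.14, just above.

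Rdh10, which begins the pathway, gave opposite signs on its probe sets. The brighter had 917, 1160 and 1330 in null testes and 1230, 851 and 1070 in control testes, a log2 difference of 0.11 (standard error 0.17, limma adjusted p = 0.905, n = 3 per group). The other had 343, 455 and 506 in null testes and 592, 396 and 500 in control testes, a difference of -0.19 (standard error 0.20, limma adjusted p = 0.853, n = 3 per group). On both, null replicate 1 was the lowest null array and control replicate 2 the lowest control array. Averaged over the probe sets, the Rdh10 difference was -0.04, so its direction was not settled. The difference of the second probe set ran from -0.34 without control replicate 2 to -0.03 without null replicate 1.

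Dhrs3, the reductase that returns retinaldehyde to retinol and itself a target of retinoic acid, had 1140, 1110 and 1120 in null testes and 1170, 900 and 993 in control testes. The null values were close together and lay within the control range, with only control replicate 1 above them. The log2 difference was 0.15 (standard error 0.11, interval -0.11 to 0.40, limma adjusted p = 0.809, n = 3 per group). Dropping control replicate 2 gave 0.06 and dropping control replicate 1 gave 0.25.

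Cyp26b1, the enzyme that clears retinoic acid in the fetal testis, differed far more between arrays of a group than between groups. It had 176, 288 and 255 in null replicates 1, 2 and 3, against 378, 142 and 222 in control replicates 1, 2 and 3. The highest and the lowest array were both controls, 2.66-fold apart, and all null arrays lay between them. The null to control fold was 1.03, with a 95% confidence interval of 0.590 to 1.79 (log2 difference 0.04, standard error 0.35, limma adjusted p = 0.987, n = 3 per group). Its within-group SD was 0.56 on the log2 scale, above that of 96.1% of probe sets tested, whose median was 0.18. Leaving out control replicate 2 gave -0.30 and leaving out control replicate 1 gave 0.40, so a sign cannot be read.

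Crabp1, which binds retinoic acid in the cytoplasm, varied in much the same order as Cyp26b1. It had 941, 1180 and 1210 in null testes and 1470, 739 and 964 in control testes. Control replicate 1 was again highest and control replicate 2 lowest, with null replicate 1 next to it. The log2 difference was 0.12 (standard error 0.23, interval -0.42 to 0.66, limma adjusted p = 0.920, n = 3 per group), with -0.11 once control replicate 2 was left out and 0.39 once control replicate 1 was.

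The receptors had the smallest unadjusted p and the only groups that did not overlap. Rxrb, a partner in the receptor heterodimers, had 1750, 1390 and 1830 in null testes and 1260, 1390 and 1540 in control testes. Null replicates 1 and 3 lay above every control, and null replicate 2 equalled control replicate 2. The log2 difference was 0.24 (standard error 0.13, interval -0.05 to 0.53, limma adjusted p = 0.774, n = 3 per group). Its unadjusted limma p was 0.0921. Fits on 5 arrays gave 0.16, without null replicate 3, to 0.36, without null replicate 2.

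Rara, the retinoic acid receptor alpha, was dim, with 27.2, 27.0 and 23.8 in null testes and 29.4, 29.3 and 31.1 in control testes. All null values were below all control values, at intensities near double the array medians. The log2 difference was -0.21 (standard error 0.15, interval -0.54 to 0.13, limma adjusted p = 0.798, n = 3 per group). With single arrays left out it ran from -0.24, without null replicate 1, to -0.14, without null replicate 3. Adding 16 to the intensities brought it to -0.13. The within-group SD of Rara was 0.08, below the median of all probe sets tested, so its standard error depends on how limma shares the spread. Its unadjusted limma p was 0.199 with the intensity trend and 0.0749 without it (adjusted p = 0.729 without).

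**Figure D2:**
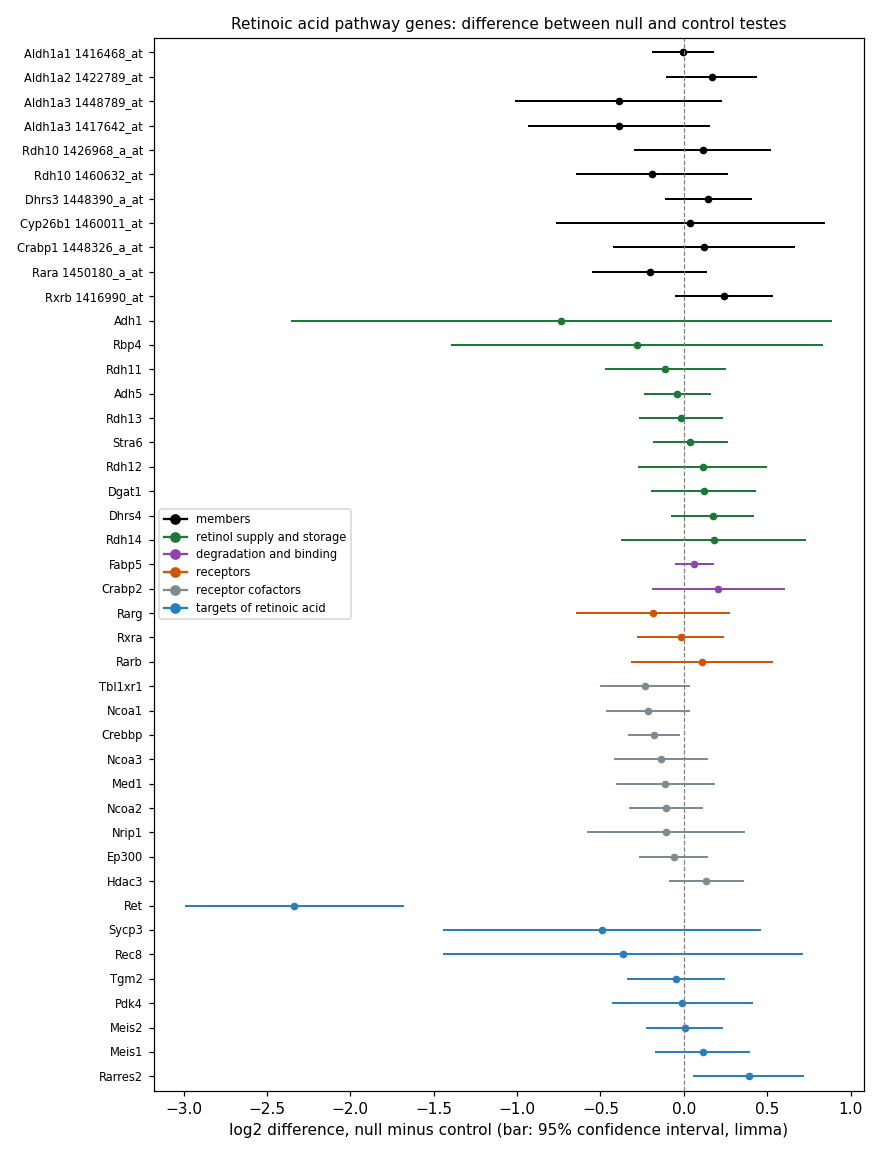
Log2 difference of null minus control (horizontal axis) with its 95% confidence interval from limma, for the 11 tested member probe sets (black, top) and the brightest tested probe set of 32 other pathway genes, coloured by list. All 11 member intervals cross 0; Ret, at -2.34, lies far to the left of the rest.

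Other genes of the pathway were taken from lists by role, and none was called either. Among the 52 genes on these lists that are no member, 32 were tested, with 0 called, 3 at an unadjusted limma p under 0.05 and 12 with a higher mean in null testes. Over all 11874 genes tested, 6 were called, 765 had an unadjusted limma p under 0.05 and 56.3% were higher in null testes. The median log2 difference was -0.04 for the 32 pathway genes and 0.03 for all genes tested. Of 10 tested genes of retinol supply and storage, 5 were higher and 5 lower, with a median of 0.01. Adh1, an alcohol dehydrogenase, had the largest difference among them, with 1360, 268 and 230 in null testes and 354, 931 and 1170 in control testes. That is a log2 difference of -0.73 with a standard error of 0.70 (limma adjusted p = 0.839, n = 3 per group), and the groups overlapped fully. Rbp4, the plasma carrier of retinol, was at -0.28, and the retinol dehydrogenase Rdh14 and the related Dhrs4 at 0.18 and 0.17.

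Of degradation and binding genes, Crabp2 was at 0.21 and Fabp5, another fatty acid binding protein that carries retinoic acid, at 0.06. Of the other receptors, Rarb was at 0.11, Rxra at -0.02 and Rarg at -0.18, and Rxrg lay below the filter. Of 9 tested receptor cofactors, 8 had a lower mean in null testes and 1 a higher one, with a median of -0.11. With 1 array left out the median of the cofactors was -0.19 to -0.03. The medians of retinol supply (-0.02 to 0.05), receptors (-0.07 to 0.06) and targets (-0.03 to 0.10) changed sign, and that of the 2 degradation and binding genes was 0.05 to 0.18. Crebbp, a coactivator and acetyltransferase, had 3470, 3890 and 3990 in null testes and 4350, 4340 and 4140 in control testes, groups that did not overlap. Its log2 difference was -0.18 (standard error 0.07, limma adjusted p = 0.773, n = 3 per group). Tbl1xr1, of the corepressor complex, was at -0.23, the coactivators Ncoa1 and Ncoa3 at -0.21 and -0.14, and the deacetylase Hdac3 at 0.14.

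No target of retinoic acid was called. Of 12 tested, 7 had a higher and 5 a lower mean in null testes, with a median of 0.02. Among these 12, Dhrs3 is a member, and Rarb, Crabp2 and Stra6 are counted on the lists above too. All of these repeated genes had a higher mean in null testes. Cyp26a1, whose window above holds a full repeat, had values of 3.84 to 4.81 on the 6 arrays, far below the array medians, so no change could be read. Rarb, the other gene with a full repeat, had 106, 127 and 163 in null testes and 129, 119 and 114 in control testes. The null values of Rarb spanned the control values (standard error 0.18, limma adjusted p = 0.910, n = 3 per group). Rarres2, named for its response to retinoids, had 736, 566 and 625 in null testes and 506, 427 and 538 in control testes on its brightest probe set, without overlap. That is a log2 difference of 0.39 (standard error 0.14, limma adjusted p = 0.773, n = 3 per group). The suffix of its name marks a set that may also detect similar transcripts, and the other tested Rarres2 sets were at 0.18 and 0.04. Ret, a receptor tyrosine kinase on the target list, was at -2.34 (limma adjusted p = 0.0979, n = 3 per group).

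Of the meiotic targets, Stra8, Rec8 and Sycp3 were highest in control replicate 2. Stra8 lay below the filter, with 6.53, 6.58 and 7.66 in null testes and 8.21, 18.8 and 8.22 in control testes. Rec8, a meiotic cohesin, had 24.5, 11.8 and 10.7 in null testes and 10.9, 35.4 and 17.2 in control testes. Sycp3, of the chromosome axis, had 440, 360 and 452 in null testes and 389, 1250 and 407 in control testes. Dmc1, a meiotic recombinase, lay below the filter on both probe sets, with 16.4, 12.3 and 12.9 in null testes and 9.50, 14.7 and 13.8 in control testes on the first, where null replicate 1 was highest. The log2 differences of Rec8 and Sycp3 were -0.37 and -0.49 (standard errors 0.46 and 0.41, limma adjusted p = 0.882 and 0.823, n = 3 per group). Of 12 germ cell markers, of which Sycp3 is 1, 9 were tested, with summed intensities of 10255 to 12983 in null and 10380 to 17341 in control testes, the highest in control replicate 2. Not every marker followed the sum. Pou5f1 had 892 in null replicate 1 against 832 in control replicate 2, and the brighter Kit probe set had 166 in control replicate 2, the lowest of the controls. Their part in these values was not tested. In whole testes, fewer cells of a type and less RNA per cell cannot be told apart.

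The array to array pattern of Cyp26b1, Crabp1 and Rdh10 ran alongside endothelial and erythroid markers, and alongside some Sertoli markers. All 8 endothelial markers were tested, with summed intensities of 1719, 3025 and 3285 in null replicates 1, 2 and 3 and of 3202, 1222 and 3056 in control replicates 1, 2 and 3. Null replicate 1 and control replicate 2 were the low arrays of both groups, as they were for Cyp26b1, Crabp1 and both Rdh10 probe sets. Kdr was an endothelial exception in part, with its highest value, 334, in control replicate 3. Of 8 erythroid markers 5 were tested, with summed intensities of 2220, 4415 and 4579 in null replicates 1, 2 and 3 and of 5124, 1013 and 2390 in control replicates 1, 2 and 3. Their sum was highest in control replicate 1, like Cyp26b1 and Crabp1, whereas the endothelial sum was highest in null replicate 3. Hba-x, with 3040, and Klf1, with 23.7, went with the erythroid sum. The brightest probe sets of Hbb-bh1, Alas2 and Slc4a1 were highest in null replicate 3. They had 1500, 167 and 639 there, against 1420, 143 and 497 in control replicate 1. By the rule for similar patterns, Ddit4l, Flrt2, Flt1 and Prex1 were closest to Cyp26b1, with Pearson r of 0.996, 0.993, 0.991 and 0.989 over the 6 arrays. Flt1 is a receptor of vascular endothelial growth factor. High values were not confined to these genes. Of the 3836 probe sets that varied enough to be ranked, 129 had an r over 0.9 with Cyp26b1, its own probe set included. Some Sertoli markers were also low in null replicate 1 and control replicate 2 and highest in control replicate 1. On their brightest probe sets, Inhbb had 1470, 1860 and 2050 in null testes and 2190, 1380 and 1570 in control testes. Sox9 had 298, 554 and 535 in null testes and 877, 419 and 485 in control testes. The Sertoli sum differed, with 18796 in control replicate 3 below 19497 in control replicate 2. The part of vessel, blood or Sertoli cell content in these values was not tested.

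**Figure D3:**
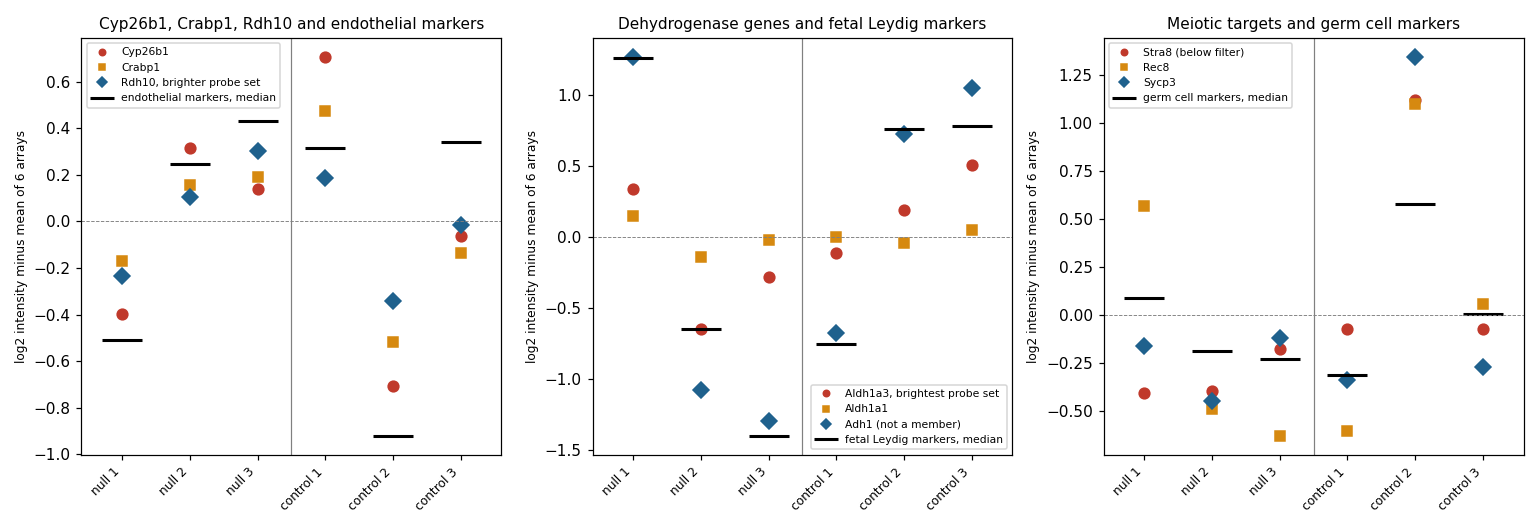
Deviation of the log2 intensity from the 6-array mean (vertical axis) on the 3 null arrays (left of the grey line) and 3 control arrays (right), for members and related genes (points) beside the median of a marker list (black bars). Cyp26b1, Crabp1 and Rdh10 are low with the endothelial markers in null replicate 1 and control replicate 2, Aldh1a3 and Adh1 are high with the fetal Leydig markers in null replicate 1 and control replicates 2 and 3, and Stra8, Rec8 and Sycp3 peak in control replicate 2.

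Aldh1a3 ran instead with fetal Leydig markers. Of 8 such markers 4 were tested (Star, Cyp11a1, Cyp17a1 and Hsd3b1), with summed intensities of 12950, 4182 and 3204 in null replicates 1, 2 and 3 and of 4024, 9430 and 10320 in control replicates 1, 2 and 3. Null replicate 1 and control replicates 2 and 3 were high for these markers, for Adh1 and for both tested Aldh1a3 probe sets. No marker of any list is at 0, since the deposited values are all positive, and none of the endothelial, erythroid, Leydig or germ cell markers was called. The part of Leydig content in the Aldh1a3 difference was not tested.

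A leading number in the sample descriptions is shared by null replicate 2 and control replicate 3, and no label explains it. Between these arrays, null minus control, the log2 difference was -1.15 for the brightest Aldh1a3 probe set, 0.38 for Cyp26b1, 0.29 for Crabp1, -0.15 for Rxrb and -0.20 for Rara. The sign of Rxrb in this pair was opposite to that of the group means, and Rara kept its sign. The deviations of these 2 arrays from their group means correlated at -0.16 over the probe sets tested. A single pair gives no error.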

How the data were processed

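Gonads were dissected at E13.5, RNA was prepared with an Allprep Micro kit, and 100 ng was amplified and labelled with biotin using a NuGen Ovation kit; these steps are per the labels' protocols. The deposited table holds linear intensities of each array, which the authors made with GCRMA, per the submitters' processing notes. GCRMA corrects background and normalizes between arrays, so folds of dim values depend on it. Its version, the genome build and detection calls are not given in the sources used here.

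Samples were grouped by title. Intensities were taken to log2 with no constant, and 22082 probe sets with a mean of at least 4 were fitted with limma 3.58.1 in R 4.3.3 (group only, eBayes with an intensity trend, two-sided, Benjamini-Hochberg adjustment over all 22082). Symbols came from GEO's platform annotation: 34958 probe sets had 1 symbol, 932 several and 9211 none. The 9 member symbols matched RefSeq by Entrez ID. The test was tried on simulated data. No array copied another, with 301 to 451 equal values between any 2.

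The members and lists were chosen with earlier results of these data known. All member probe sets are given. Of other pathway genes, those with the largest differences on each list, up to 4, are given. A few were added after values were seen (Stra8, Stra6, Cyp26a1, Dmc1, Hdac3, Sox9, Inhbb, Foxl2, Pou5f1, Kit, Kdr, Hbb-bh1, Alas2, Slc4a1, Hba-x and Klf1). A list is described by the brightest tested probe set of each gene. Genes like Cyp26b1 were the 4 with the highest Pearson r among tested probe sets with an SD of at least 0.3. Alternatives were no filter, a minimum of 6, quantile normalization, 16 added, eBayes without a trend, a replicate block, leaving out each array, and the mean over a gene's probe sets. Same-numbered null and control arrays had deviations that correlated at -0.59, -0.34 and 0.14 for replicates 1, 2 and 3. Null replicate 1 and control replicate 2 correlated at 0.58. The samples were therefore not treated as paired by number, though 3 arrays per group cannot decide whether they are.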

Additional observations from a re-analysis of the deposited data

How the results depend on the processing

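In every alternative run, 0 member probe sets were called. Over all probe sets the count of calls was 6, and it was 1 with eBayes without a trend, 0 with the replicate number as a block, and 0 to 4 when single arrays were left out, 0 without control replicate 3 and 1 without null replicate 3, control replicate 1 or control replicate 2. The cause was not tested. Dmrt1 was called in the main fit, with a log2 difference of -4.72 (limma adjusted p = 0.00388, n = 3 per group). It had a limma adjusted p of 0.1996 with the replicate block and 0.0558 without control replicate 3, and stayed called in the other alternatives run for it. Leaving out single arrays moved the log2 difference between -0.30 and 0.40 for Cyp26b1, -0.082 and 0.062 for Aldh1a1, -0.031 and 0.26 for the brighter Rdh10 probe set and -0.11 and 0.39 for Crabp1, so these signs depend on 1 array. The mean over the Rdh10 probe sets gave -0.039 in place of 0.11. Of 66 member values under settings that keep all arrays, the other 65 kept their sign and stayed uncalled. With single arrays left out, Aldh1a3 ran from -0.66 to -0.17 on its brightest probe set, and the smallest unadjusted p of any member was 0.0137, for Rxrb without null replicate 2. Low signal limits what the values of Rara, Stra8 and the dimmer Aldh1a3 probe sets show.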
